A study of Mus musculus with 6 samples.

Results

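The genes described here are 10 mouse genes of sphingosine-1-phosphate (S1P) signalling: the receptors S1pr1, S1pr2, S1pr3 and S1pr4, the sphingosine kinases Sphk1 and Sphk2, the transporter Spns2, the lyase Sgpl1 and the lipid phosphatases Plpp1 and Plpp3. They were chosen by symbol, and each matched 1 of the 55450 gene identifiers of the count table. They were measured by poly(A) RNA-seq in 3 libraries of Rbpj-mutant and 3 libraries of control brain endothelial cells, freshly isolated from mice at postnatal day 7. Mutant mice were Cdh5(PAC)-CreERT2; Rbpjflox/flox and control mice Cdh5(PAC)-CreERT2; Rbpjflox/WT, both on a mixed FVB/N and C57BL/6 background. All mice, controls included, carried the tamoxifen-inducible Cre from a Cdh5 (VE-cadherin) promoter, which is active in endothelium, and were given 100 µg of tamoxifen on postnatal days 1 and 2, so the control cells could lose 1 Rbpj allele. Cells were enriched on CD31-coated magnetic beads and RNA of many male and female mice was pooled. Separate pools for the 3 libraries of each genotype are not stated, so p-values cover the spread between libraries, which may be technical. The contrast addresses what loss of endothelial Rbpj, the DNA-binding protein of Notch signalling, does to these cells in a study of brain arteriovenous malformation.

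S1P is a lipid mediator made inside cells from sphingosine by the sphingosine kinases and carried out of endothelial cells by Spns2. Outside the cell it acts on G protein-coupled receptors, of which S1pr1 couples to Gi and is known for stabilising endothelial junctions and restraining sprouting. S1P is removed by dephosphorylation, in which the membrane lipid phosphatases of the Plpp family act on the cell surface, and by irreversible cleavage inside the cell by the lyase Sgpl1.

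In the mutant libraries, transcripts of the receptors S1pr1 and S1pr3 were higher, and those of the receptor S1pr4 and the phosphatase Plpp1 were lower. S1pr1 was 1.26-fold and S1pr3 1.20-fold the control level, while S1pr4 and Plpp1 stood at 71.0% and 82.2% of it. The kinases, the transporter, the lyase, S1pr2 and Plpp3 did not pass the test. A gene was called higher or lower when its Benjamini-Hochberg adjusted p was under 0.05 in edgeR's quasi-likelihood test over all 19549 genes tested. All 10 genes passed the filter on low counts, and 2 were called higher and 2 lower. Of all genes tested, 14.4% were called, 7.56% higher and 6.83% lower. The median log2 fold change was -0.0014 over the 10 genes and -0.0092 over all genes tested.

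Rbpj itself, the targeted gene, had 47.9, 46.8 and 45.2 CPM (counts per 1000000 after library scaling) in mutant libraries, against 54.3, 54.3 and 53.8 CPM in control libraries. It was lower in every mutant library, by 0.21 ± 0.042 on the log2 scale (SE; edgeR adjusted p = 0.0129), and the adjusted p was 0.0510 without mutant library 2, and 0.0571 and 0.0543 without control libraries 1 and 2. The gene-level count includes exons outside a deleted part and is a weak check of the deletion. Library totals ran from 75744913 to 82092461 counts, and 1 read pair gave about 4 of these counts. On the second principal component, with 16.5% of the variance, mutant library 3 lay at 26.5 and control library 3 at 10.7. The other libraries lay between -19.2 and -0.31. Of 12 endothelial markers 4 were higher and 3 lower, with summed levels of 12974 to 14000 CPM in mutant and 12690 to 13027 CPM in control libraries. Of 8 markers of microglia and macrophages 5 were called lower, with sums over all 8 of 1026 to 1065 CPM in mutant and 1296 to 1321 CPM in control libraries. Fibroblast markers summed to 542 to 722 CPM in mutant and 827 to 937 CPM in control libraries, and astrocyte markers to 261 to 391 CPM in mutant and 482 to 536 CPM in control libraries, with 2 of 8 called lower in each list. Gja1 and Slc1a3, not called, carry much of the astrocyte difference. Gja1 had 201, 79.2 and 198 CPM in mutant and 275, 273 and 259 CPM in control libraries. Slc1a3 had 40.0, 39.1 and 28.5 CPM in mutant and 89.5, 45.7 and 86.7 CPM in control libraries. Pericyte and smooth muscle markers summed to 4218 to 4311 CPM in mutant and 4148 to 4268 CPM in control libraries, and 3 of the 12 were called higher and 6 lower. The largest part of this sum is Rgs5, at 2172 ± 82.1 CPM in mutant and 2043 ± 38.2 CPM in control libraries (SD, n = 3 each), and the sum hides opposite changes. The contractile smooth muscle genes fell, by 1.32 for Acta2, 1.17 for Tagln, 1.02 for Myh11 and 1.84 for Cnn1 on the log2 scale (edgeR adjusted p = 0.000242, 6.92e-05, 0.000135 and 0.00227). The pericyte genes Kcnj8 and Abcc9 rose by 0.49 and 0.52 (edgeR adjusted p = 0.00111 and 0.000111). Cspg4 was the other higher gene, and Vtn, also a pericyte gene, and Notch3 were the other lower ones. Erythroid markers summed to 4663 to 4958 CPM in mutant and 6971 to 7177 CPM in control libraries, with 5 of 6 called lower. No marker of these lists was at 0 in all libraries. Enriched cells do not separate fewer cells of a type from less RNA per cell.

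Per kilobase of exon, S1pr1 was by far the most abundant of the 10 genes, at 152 CPM per kb in mutant and 121 CPM per kb in control libraries. It ranked 347th of the 19549 genes tested on this scale. Plpp1, S1pr3, Spns2 and Plpp3 followed, with means over all libraries between 26.9 and 34.0 CPM per kb. In this group the order of the genes was not the same in both genotypes. In mutant libraries S1pr3, at 31.5 to 32.6 CPM per kb, overlapped with Plpp1, at 29.5 to 31.9 CPM per kb. In control libraries Plpp1, at 35.8 to 38.2 CPM per kb, stood above S1pr3, at 25.9 to 27.4 CPM per kb. Spns2 and Plpp3 could not be told apart by their ranges in mutant libraries, with 27.2 to 29.5 and 26.1 to 28.2 CPM per kb, while in control libraries Spns2, at 28.1 to 29.9 CPM per kb, lay just above Plpp3, at 25.7 to 27.9 CPM per kb. Sgpl1 followed at 12.7 CPM per kb, then Sphk2 at 6.83, S1pr4 at 5.12, S1pr2 at 1.28 and Sphk1 at 0.354 CPM per kb, each as the mean of 6 libraries. Lengths are the union of all annotated exons, which understates the level of a gene with many unused exons.

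**Figure D1:**
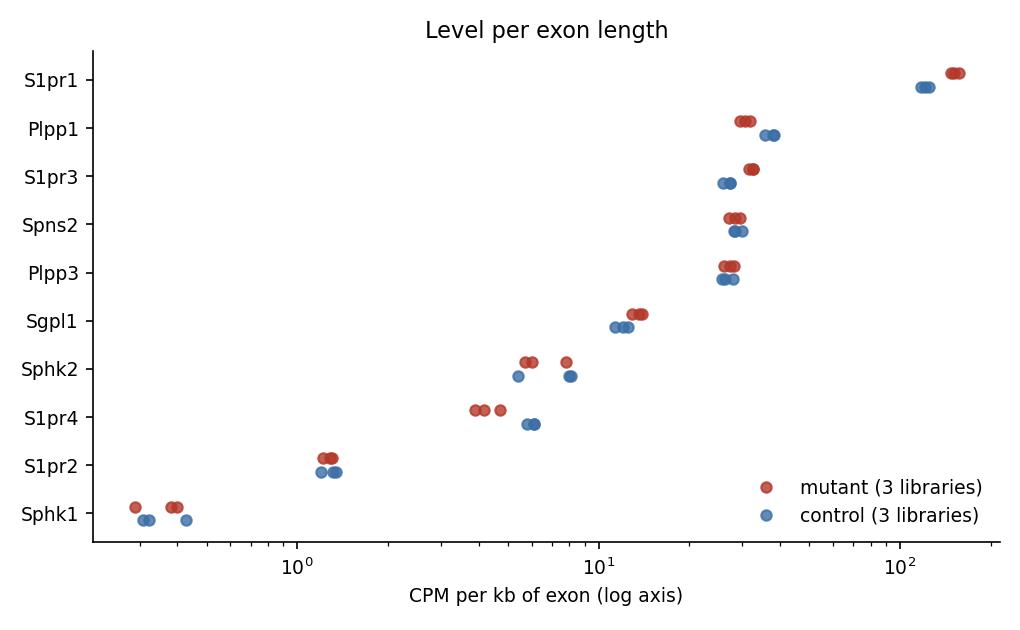
Level of each of the 10 genes in CPM per kb of exon on a log axis, with 1 point per library for the 3 mutant (red) and 3 control (blue) libraries. S1pr1 lies above 117 CPM per kb in every library and Sphk1 below 0.43 in every library.

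S1pr1 (ENSMUSG00000045092; GRCm38 chromosome 3, 115710433 to 115715072, minus strand) encodes the principal S1P receptor of endothelial cells. It had 452, 460.2 and 477 CPM in mutant libraries, against 358, 368 and 379 CPM in control libraries. Every mutant library lay above every control library, and the gap between the groups was wider than the spread within either. Of all genes tested, 34.1% had groups that did not overlap, in either direction. The mean was 463 ± 12.8 CPM in mutant and 368 ± 10.7 CPM in control libraries (SD, n = 3 each), a log2 fold change of 0.33 ± 0.036 (SE; edgeR adjusted p = 0.000916). Between 7082 and 9291 read pairs stood behind each library's value. The exons of S1pr1 overlap no other annotated gene. Of the 12 endothelial markers, Pecam1, Tie1, Emcn and Egfl7 rose by 0.41, 0.21, 0.47 and 0.43 on the log2 scale. Cdh5, Tek and Ly6c1 fell by 0.15, 0.62 and 0.54, and 5 were not called. The part of a change in the cells collected in the rise of S1pr1 was not tested.

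S1pr3 (ENSMUSG00000067586; chromosome 13, 51408639 to 51422797, plus strand) encodes a receptor that couples to Gi, Gq and G12/13 proteins and is also used by vascular smooth muscle. It had 141, 145 and 146 CPM in mutant libraries, against 122, 122 and 116 CPM in control libraries. The groups did not overlap, as for 34.1% of all genes tested, and the 3 mutant libraries lay close together. The log2 fold change was 0.26 ± 0.037 (SE; edgeR adjusted p = 0.00314). In the same libraries the contractile smooth muscle markers were lower, as given above. Of the other markers of that list, Kcnj8, Abcc9 and Cspg4 were higher, Vtn and Notch3 lower, and Pdgfrb, Rgs5 and Des not called. The part of these cells in the rise of S1pr3 was not tested. An antisense gene, Gm32834, overlaps 45 bases of its exons and had at most 0.70 CPM in any library.

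S1pr4 (ENSMUSG00000044199; chromosome 10, 81497747 to 81500132, minus strand) encodes a receptor known mainly from leukocytes. It had 9.94, 11.2 and 9.31 CPM in mutant libraries, against 13.8, 14.5 and 14.5 CPM in control libraries. All mutant libraries lay below all control libraries, and 34.1% of all genes tested had groups that did not overlap. The log2 fold change was -0.49 ± 0.091 (SE; edgeR adjusted p = 0.0102), on 173 to 298 read pairs per library. In the same libraries 5 of 8 microglia and macrophage markers were called lower, while P2ry12, Aif1 and Mrc1 were not called and their groups overlapped. Csf1r, the receptor for colony-stimulating factor 1, had 332 ± 2.67 CPM in mutant and 435 ± 22.5 CPM in control libraries (SD, n = 3 each), a log2 fold change of -0.39 ± 0.042 (SE; edgeR adjusted p = 0.000784). Granulocyte markers summed to 46.1 to 59.8 CPM in mutant and 36.5 to 53.1 CPM in control libraries, and lymphocyte markers to 16.3 to 19.4 CPM in mutant and 11.2 to 14.1 CPM in control libraries, with none of 6 and none of 8 called. The part of these cells in the fall of S1pr4 was not tested.

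S1pr2 (ENSMUSG00000043895; chromosome 9, 20962361 to 20976781, minus strand), whose receptor couples to G12/13 proteins and is known for loosening endothelial junctions, had 10.2, 9.73 and 10.4 CPM in mutant libraries, against 10.7, 9.56 and 10.5 CPM in control libraries. The groups overlapped almost completely. Its log2 fold change was -0.020, with a 95% interval from -0.22 to 0.18 (edgeR adjusted p = 0.916).

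Summed per kb of exon, the 4 receptors reached 189.8 ± 4.59 CPM per kb in mutant and 155 ± 2.93 CPM per kb in control libraries (SD, n = 3 each). S1pr1 made up 80.1 ± 0.41% of this sum in mutant and 78.0 ± 0.83% in control libraries. S1pr3 held 17.0 ± 0.19% in mutant and 17.3 ± 0.83% in control libraries, a pair of shares that overlapped. The share of S1pr4 was 2.24 ± 0.23% in mutant and 3.86 ± 0.061% in control libraries.

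The start regions of S1pr3 and S1pr4 are shown as the receptors called in opposite directions for which a RefSeq promoter window was given. They run from 250 bases before to 30 bases after the RefSeq start site (GRCm38.p6), at chr13:51408368-51408647 on the plus strand for S1pr3 and chr10:81500108-81500387 on the minus strand for S1pr4. Capitals mark TGGGAA, the core of the motif bound by RBPJ, searched on both strands.
S1pr3: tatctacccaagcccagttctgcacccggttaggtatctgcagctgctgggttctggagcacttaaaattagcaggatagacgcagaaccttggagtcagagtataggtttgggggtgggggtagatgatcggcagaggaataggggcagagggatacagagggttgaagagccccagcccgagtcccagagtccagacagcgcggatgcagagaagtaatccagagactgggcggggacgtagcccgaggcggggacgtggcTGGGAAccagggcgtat
S1pr4: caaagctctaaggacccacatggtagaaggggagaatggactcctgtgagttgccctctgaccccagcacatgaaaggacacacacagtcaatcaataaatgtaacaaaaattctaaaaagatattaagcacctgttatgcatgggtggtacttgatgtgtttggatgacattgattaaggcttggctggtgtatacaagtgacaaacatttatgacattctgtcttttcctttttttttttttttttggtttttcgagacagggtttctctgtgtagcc
S1pr3 held 1 match, on its sense strand, whose first base lies 13 bases downstream of the start site, and the S1pr4 window held none. TGGGAA occurred in 25.6% of all 32851 promoter windows of 300 bases. Windows were given for 8 of the 10 genes, 13 windows in all, and 2 of the 13 held it, that of S1pr3 and 1 of the 5 of Sphk1. S1pr1 and Plpp1 had no window. A match is a run of letters and not a measured binding site.

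**Figure D2:**
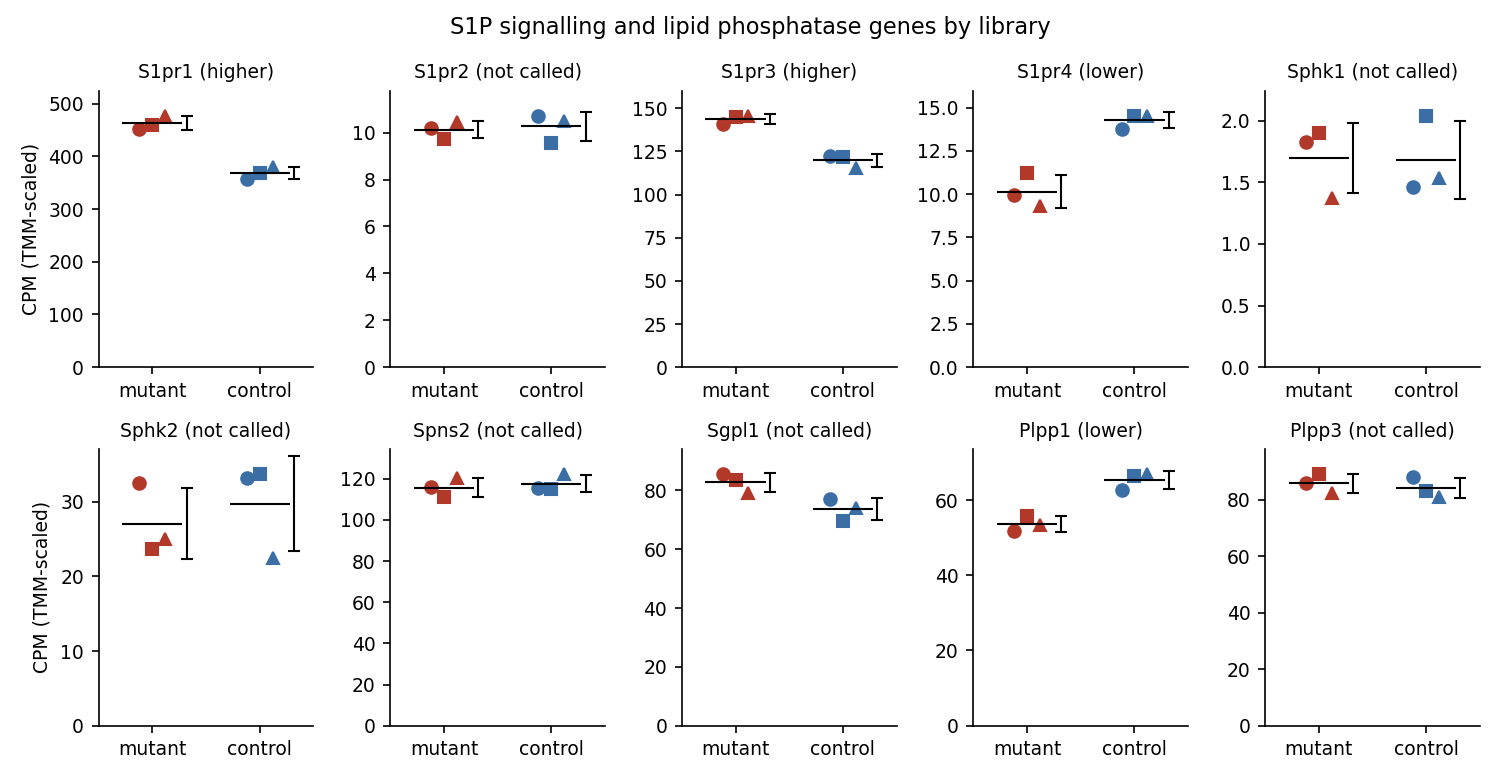
Expression of each gene in CPM, with its own axis from 0, in the 3 mutant (red) and 3 control (blue) libraries. Circles, squares and triangles are libraries 1, 2 and 3, which were not taken as pairs, the line is the mean and the bar beside it ± 1 SD. S1pr1 and S1pr3 lie higher and S1pr4 and Plpp1 lower in all 3 mutant libraries. The groups did not overlap for 34.1% of all genes tested.

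Among the enzymes that make S1P, counts of Sphk2 far outnumbered those of Sphk1, with a limit on the level of Sphk2 given below. Sphk1 (ENSMUSG00000061878; chromosome 11, 116530925 to 116536674, plus strand), the largely cytosolic kinase, had 1.82, 1.90 and 1.38 CPM in mutant libraries, against 1.47, 2.04 and 1.54 CPM in control libraries. These values rest on 25.5 to 41.8 read pairs per library, and the 95% interval of its log2 fold change ran from -0.49 to 0.52 (edgeR adjusted p = 0.974). A change of the size seen for S1pr1 was therefore not detectable at this depth. Its antisense neighbour Gm29292, which overlaps 192 bases of its exons, had no count in any library.

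Sphk2 (ENSMUSG00000057342; chromosome 7, 45709467 to 45718002, minus strand), the kinase also found in the nucleus and mitochondria, had 32.5, 23.7 and 25.0 CPM in mutant libraries, against 33.2, 33.7 and 22.4 CPM in control libraries. One library of each group thus stood apart from the others of that group. Mutant library 1 was with the high values and control library 3 with the low ones. The log2 fold change was -0.14, with a 95% interval from -0.64 to 0.37 (edgeR adjusted p = 0.745). Single libraries moved this value, to -0.29 without mutant library 1 and -0.31 without control library 3, and to -0.042, -0.078, -0.046 and -0.031 without mutant libraries 2 and 3 and control libraries 1 and 2. None of these fits called Sphk2. Exons of the ribosomal protein gene Rpl18 and of the transcription factor gene Dbp overlap 912 bases of Sphk2 exons on the opposite strand, and no source used here says if reads were counted by strand. If strand was not used, reads of these genes cannot be told apart from those of Sphk2. The level of Sphk2, its place per kb and its lead over Sphk1 carry this limit. Rpl18 had 218, 262 and 251 CPM in mutant libraries, against 248, 249 and 265 CPM in control libraries. The 3 libraries with the most Sphk2 were the 3 with the least Rpl18. Dbp had 8.62, 7.97 and 8.09 CPM in mutant libraries, against 10.8, 9.16 and 10.3 CPM in control libraries, and was not called (edgeR adjusted p = 0.0894).

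**Figure D3:**
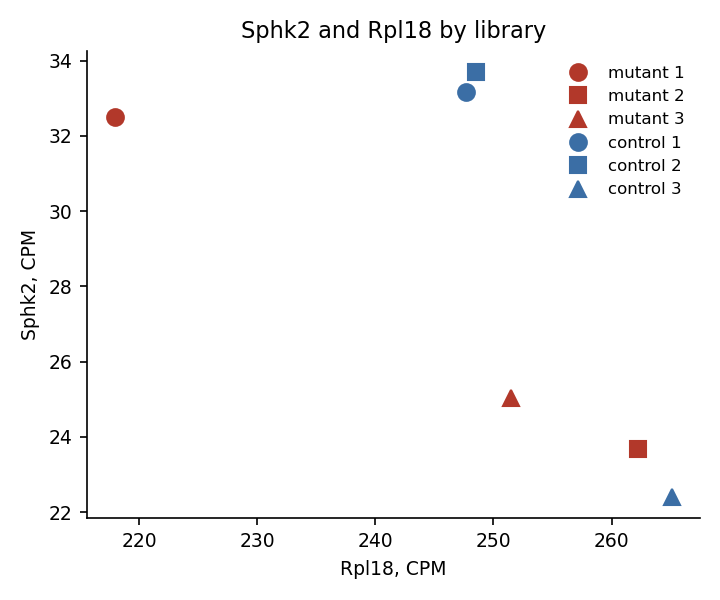
Expression of Sphk2 against that of its antisense neighbour Rpl18, both in CPM, with 1 point per library for the 3 mutant (red) and 3 control (blue) libraries. Libraries split by Sphk2, at 32.5 to 33.7 or 22.4 to 25.0 CPM, and not by genotype. Both axes start above 0.

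Spns2 (ENSMUSG00000040447; chromosome 11, 72451638 to 72489904, minus strand), the S1P exporter of endothelial cells, differed little between the groups, with an SE of 0.045 for its log2 fold change, between those of S1pr3 and Plpp1. It had 116, 111 and 120.5 CPM in mutant libraries, against 115, 115 and 122 CPM in control libraries, and the groups overlapped. The 95% interval of its log2 fold change, from -0.13 to 0.083, lies below the estimates for S1pr1 and S1pr3 (edgeR adjusted p = 0.818). An antisense gene, Mybbp1a, overlaps 131 bases of its exons and had 107 to 130.1 CPM in mutant and 102 to 119 CPM in control libraries.

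Sgpl1 (ENSMUSG00000020097; chromosome 10, 61098642 to 61147703, minus strand), the lyase that ends the pathway, had 85.6, 83.7 and 79.3 CPM in mutant libraries, against 77.0, 69.6 and 74.2 CPM in control libraries. The groups did not overlap, as was the case for 34.1% of all genes tested. Its log2 fold change of 0.17 ± 0.051 (SE) missed the threshold (edgeR adjusted p = 0.0665). With counts divided by 4 the adjusted p was 0.0490, and it was 0.0502 to 0.189 under the other 13 alternatives.

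The lipid phosphatases remove the phosphate of S1P, lysophosphatidic acid (LPA) and related lipids. Plpp1 (ENSMUSG00000021759; chromosome 13, 112800792 to 112867894, plus strand) had 51.6, 55.8 and 53.4 CPM in mutant libraries, against 62.6, 66.3 and 66.9 CPM in control libraries. All mutant libraries lay below all control libraries, and 34.1% of all genes tested had groups that did not overlap. The mean was 53.6 ± 2.09 CPM in mutant and 65.3 ± 2.35 CPM in control libraries (SD, n = 3 each), a log2 fold change of -0.28 ± 0.048 (SE; edgeR adjusted p = 0.00709). Fibroblast and astrocyte markers had lower sums in the same libraries, as given above, and their part in this fall was not tested. Exons of the antisense gene Mtrex overlap 452 of the 1750 exonic bases of Plpp1. Mtrex had 56.6, 56.5 and 62.2 CPM in mutant libraries, against 54.8, 52.8 and 55.8 CPM in control libraries. If strand was not used in counting, reads of Mtrex cannot be told apart from those of Plpp1. The level of Plpp1, its rank per kb and its share of the phosphatases carry this limit.

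Plpp3 (ENSMUSG00000028517; chromosome 4, 105157347 to 105232764, plus strand), a phosphatase of vascular endothelium, had 86.0, 89.1 and 82.3 CPM in mutant libraries, against 88.2, 83.2 and 81.1 CPM in control libraries. The groups overlapped, with a 95% interval of the log2 fold change from -0.084 to 0.14 (edgeR adjusted p = 0.778). As for Plpp1, the part of astrocytes and fibroblasts, whose markers had lower sums, in the level of Plpp3 was not tested. Of the level of both phosphatases summed per kb of exon, Plpp3 held 47.0 ± 0.97% in mutant and 41.7 ± 1.93% in control libraries (SD, n = 3 each).

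**Figure D4:**
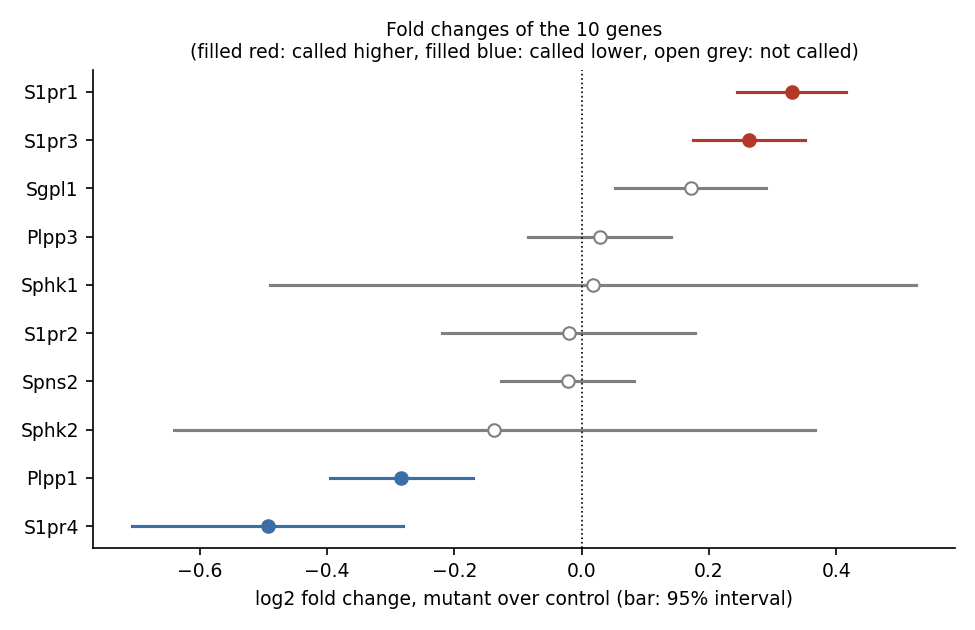
Log2 fold change of each of the 10 genes, mutant over control, with its 95% interval from edgeR. S1pr1 at 0.33 and S1pr3 at 0.26 lie right of 0 and Plpp1 at -0.28 and S1pr4 at -0.49 left of it; the intervals of Sphk1 and Sphk2 are the widest shown.

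The genes whose log2 CPM over the 6 libraries was most like that of S1pr1, among the 11738 tested genes with a mean of at least 5 CPM, were F11r, Gabarapl1 and Srpr. F11r encodes a junctional adhesion molecule, and its Pearson r with S1pr1 was 0.999. It had 276, 280 and 286 CPM in mutant libraries, against 233, 236 and 241 CPM in control libraries. For Plpp1, the second gene by level per kb, the most alike genes were Tmem143, Kctd7 and Pim2, each with r = 0.995. These values describe 6 libraries that fall into 2 groups, so that many genes called between the groups reach a high r.

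Genes next to the 10 in sphingolipid and LPA metabolism and in receptor signalling were taken in 5 lists. Of 74 in the table, 71 were tested, and 8 were called higher and 9 lower, or 23.9% against 14.4% of all genes tested. The 14.4% includes many genes of low level. With only the 11739 genes of a mean of at least 5 CPM before TMM scaling, 1425 were higher and 1298 lower, a larger share. In that fit 8 genes of the lists were higher and 10 lower. The median log2 fold change of the 71 tested genes was -0.028. Exons of the called genes Sgpp2, Cers4, Degs2, Cerk, Lpar6, Gna12 and Gna13 overlap antisense genes by 57 to 1100 bases, and for these, as for S1pr5, Enpp2, Rac1, Rhoa and the marker Csf1r, reads of the other gene cannot be told apart if strand was not used.

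Of 10 tested genes of wider S1P handling, 1 was called, or 10%, below the 14.4% of all genes tested. The list's median was -0.086. Sgpp2, which encodes an intracellular S1P phosphatase, had 18.7, 16.6 and 20.8 CPM in mutant libraries, against 32.6, 34.1 and 35.5 CPM in control libraries. Each mutant value was well below each control value, and 34.1% of all genes tested had groups that did not overlap. Its log2 fold change of -0.86 ± 0.090 (SE; edgeR adjusted p = 0.000685) exceeded in size that of every one of the 10 genes. The related phosphatase gene Sgpp1 had 31.5 ± 1.15 CPM in mutant and 32.9 ± 0.98 CPM in control libraries (SD, n = 3 each) and was not called. The fifth S1P receptor gene, S1pr5, had at most 0.49 CPM in mutant and 0.71 CPM in control libraries.

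Of 19 tested genes of ceramide and sphingosine synthesis, 5 were called lower and none higher, or 26.3% called. Of all genes tested, 6.83% were lower and 7.56% higher, and both shares were larger under the stricter filter. The list's median was -0.12. Markers of microglia had a median of -0.34 in the same libraries, those of fibroblasts -0.46 and those of astrocytes -0.34, and the contractile smooth muscle genes fell as given above. The part of these cells in the list's falls was not tested. Acer2, a Golgi ceramidase that frees sphingosine, fell by 0.38 ± 0.054 (SE; edgeR adjusted p = 0.00313), with 39.5 ± 1.86 CPM in mutant and 51.5 ± 2.01 CPM in control libraries (SD, n = 3 each). The ceramide synthase gene Cers4 fell by 0.38 ± 0.061 and Ormdl3, a brake on serine palmitoyltransferase, by 0.24 ± 0.035 on the log2 scale. Kdsr, a reductase of de novo synthesis, fell by 0.27 ± 0.052 (edgeR adjusted p = 0.0121), and its adjusted p was 0.0506 to 0.0572 without mutant library 2 or control library 1 or 2. Degs2 was the other lower gene, with an adjusted p of 0.0569 to 0.0840 without any 1 of the mutant libraries or control library 2. Degs1, its abundant relative, had 69.2, 146 and 146 CPM in mutant libraries, against 145, 142 and 75.0 CPM in control libraries. One library of each group thus stood far below the rest of its group, and the gene was not called.

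In sphingomyelin and glycosphingolipid turnover, 2 of 14 tested genes were called higher and 3 lower, or 35.7% against 14.4% of all genes tested. Of the 11739 genes under the stricter filter, 1425 were higher and 1298 lower, a larger share than 14.4%. The list's median was -0.047. Ugcg, which makes glucosylceramide, had 33.2, 37.8 and 37.0 CPM in mutant libraries, against 27.5, 25.9 and 23.9 CPM in control libraries (log2 fold change 0.48 ± 0.076 SE, edgeR adjusted p = 0.00494). The ceramide kinase gene Cerk rose by 0.38 ± 0.043 (edgeR adjusted p = 0.000972). Both enzymes use ceramide. The sphingomyelin synthase gene Sgms2 had 34.7, 34.8 and 37.9 CPM in mutant libraries, against 50.7, 49.5 and 50.0 CPM in control libraries (log2 fold change -0.48 ± 0.051 SE, edgeR adjusted p = 0.000711). The saposin precursor gene Psap fell by 0.19 ± 0.027. Smpd1 was the other lower gene (edgeR adjusted p = 0.0375), and its adjusted p was 0.0751 to 0.148 without any 1 of the 6 libraries and 0.0828 without the low-count filter. Beside these, 5 of 8 markers of microglia, cells rich in lysosomes, were called lower, and their part in the falls of the lysosomal genes Psap and Smpd1 was not tested.

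Of 10 tested genes of LPA production and LPA receptors, Lpar6 was higher and none was lower, with a median of -0.029. The 10% called was below the 14.4% of all genes tested. Lpar6 had 39.7, 39.4 and 40.3 CPM in mutant libraries, against 29.2, 31.0 and 32.2 CPM in control libraries (log2 fold change 0.37 ± 0.053 SE, edgeR adjusted p = 0.00336). Enpp2, which encodes the LPA-producing enzyme autotaxin, had 604 ± 38.6 CPM in mutant and 617 ± 7.49 CPM in control libraries (SD, n = 3 each), a difference within the spread.

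Signalling proteins below the S1P receptors, which also serve many other receptors, had 5 of 18 tested genes higher and none lower, with a median of 0.11. This is 27.8% called, against 7.56% higher and 6.83% lower of all genes tested, shares that were larger under the stricter filter. Gnai1 and Gnai2 encode alpha subunits of Gi, through which S1pr1 acts. Gnai1 had 65.8, 66.2 and 72.3 CPM in mutant libraries, against 39.5, 38.0 and 39.1 CPM in control libraries (log2 fold change 0.81 ± 0.051 SE, edgeR adjusted p = 6.6e-05). Gnai2 was far more abundant and had 1843, 1861 and 1968 CPM in mutant libraries, against 1471, 1504 and 1525 CPM in control libraries (log2 fold change 0.33 ± 0.035 SE, edgeR adjusted p = 0.000701). Gnai3, the third Gi gene, had 173 ± 1.93 CPM in mutant and 175 ± 4.04 CPM in control libraries (SD, n = 3 each) and was not called. Gna12 rose by 0.18 ± 0.032 (edgeR adjusted p = 0.00904). Gna13 (edgeR adjusted p = 0.0200) and the kinase gene Rock2 (edgeR adjusted p = 0.0227) were the other higher genes. The adjusted p of Rock2 was 0.0693 and 0.0553 without mutant library 2 or 3, and that of Gna13 lay between 0.0552 and 0.0714 without mutant library 2 or control library 2 or 3. Genes of the small GTPases downstream, Rac1, Rhoa and Rhob, were not called.

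**Figure D5:**
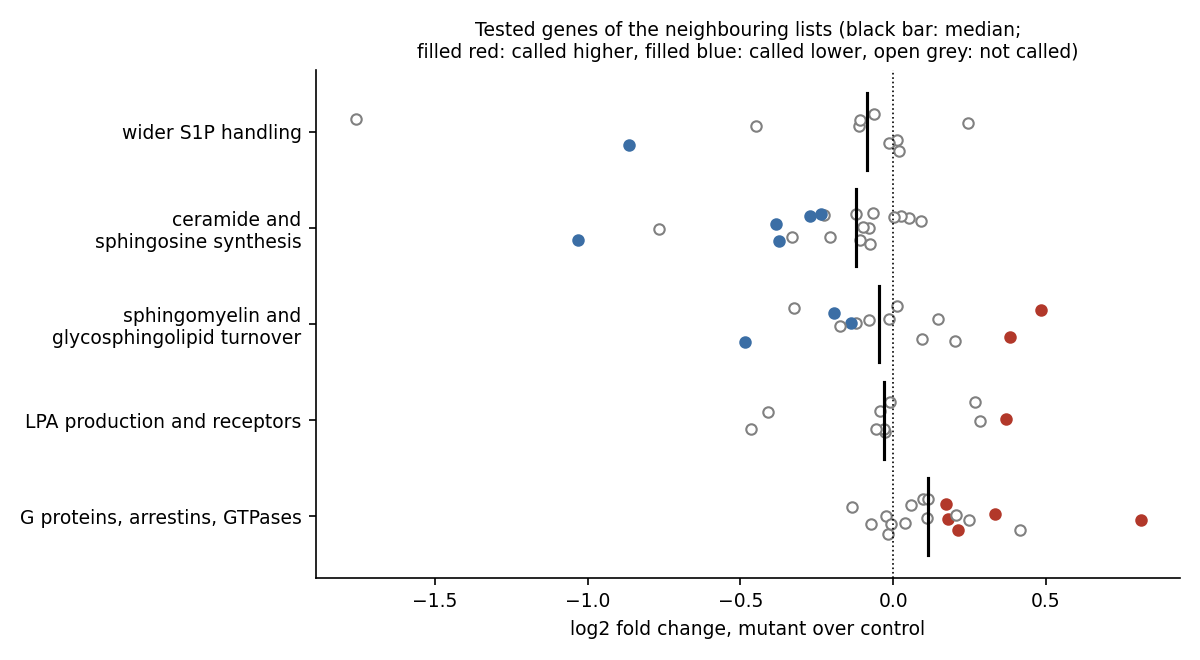
Log2 fold change, mutant over control, of the 71 tested genes of the 5 neighbouring lists, 1 point per gene, with the list median as a black bar. Ceramide and sphingosine synthesis has 5 genes called lower and none higher, and the signalling list 5 called higher and none lower. Of all genes tested, 7.56% were called higher and 6.83% lower.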

How the data were processed

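The values deposited by the authors are estimated counts, whole and without normalization. The submitters' processing notes name the build GRCm39 and the tools HISAT2, StringTie 1.3.4, edgeR, cutadapt 1.10 and FastQC 0.10.1, while their roles, settings and use of strand are not given in the sources used here. The table's 55450 identifiers all match GENCODE M21 (GRCm38), from which symbols, exon lengths and coordinates were taken. Low counts piled up at 4 (1118 to 1190 genes per library, against 316 to 365 at 3), so about 4 counts stand for 1 read pair. Within a group, 2 libraries differed by 1.90 to 2.83 times the chi-square that sampling noise gives, so none was merged.

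The groups were compared on all genes kept by filterByExpr, with TMM scaling and edgeR 4.0.16's quasi-likelihood test (robust fit, R 4.3.3, group as the only term) and Benjamini-Hochberg adjustment. The SE was the log2 fold change over the square root of F. CPM are deposited counts scaled by TMM library size, and a pseudocount of 0.5 CPM entered the logs for correlations and principal components. The test was tried on simulated data of independent libraries, a trial that does not cover libraries from the same pool or counts in steps of 4. The values were already whole, so rounding changed none. Alternatives were DESeq2 1.42.0, limma-voom 3.58.1, other scaling and filters, counts divided by 4, a replicate block and each library left out. The 10 genes and the 5 lists were chosen with earlier results of these data known. Named from the lists were at most 4 called genes each, of the largest change and a mean of at least 5 CPM; Degs1, Degs2, Gna13, Smpd1, Sgpp1, S1pr5, Enpp2, Gnai3, the GTPase genes, the marker genes and the antisense genes were chosen after their values were seen. A separate table of read quality was not used.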

Additional observations from a re-analysis of the deposited data

How the results depend on the processing

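S1pr1, S1pr3, S1pr4 and Plpp1 were called in the same direction under all 14 alternatives run. The highest adjusted p was 0.00696 for S1pr1, 0.0214 for S1pr3, 0.0422 for S1pr4 and 0.0363 for Plpp1. Among genes not called, the sign of the log2 fold change turned with a library left out. S1pr2 had 0.015 without mutant library 2 and 0.018 without control library 1 (range with any library left out -0.062 to 0.018). Spns2 had 0.015 without mutant library 2 and 0.0068 without control library 3 (range -0.047 to 0.015). Sphk1 had -0.036, -0.064, -0.067 and -0.043 without mutant library 1, mutant library 2, control library 1 and control library 3 (range -0.067 to 0.19), and it did not pass the stricter filter. The count of lower genes over all genes, 1335, was 807 to 1125 with a library left out, with 865 without mutant library 2, 807 without control library 1 and 861 without control library 2, and that of higher genes, 1477, was 1100 to 1270. Of the 17 called genes of the neighbouring lists, 12 were called under every alternative.

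The labels do not say that same-numbered libraries are pairs, so the numbers were not taken as pairs. Deviations of same-numbered libraries from their group means correlated at 0.0022, 0.019 and 0.039. Those of differently numbered libraries correlated at -0.033 to 0.015. The values were small, and that of the libraries numbered 3 was the highest of all. With a replicate block, 1106 genes were higher and 953 lower. The 4 called genes of the 10 were still called, while Kdsr, Rock2, Gna13 and Smpd1 had adjusted p values of 0.0507, 0.0685, 0.0692 and 0.111. Depth limits Sphk1 most, at 25.5 to 41.8 read pairs per library.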
